A study of Rattus norvegicus with 48 samples.

Results

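The miRNAs of the imprinted Dlk1-Dio3 locus were followed through serum and bone of rats with and without type 2 diabetes. They were chosen by name alone, as every listed rat miRNA whose number belongs to the cluster, whatever its letter or arm, and 84 of the 763 miRNAs counted in the series met this rule. The rule itself uses no measured value, but it was set with earlier results of these data known. Small RNA was sequenced from 32 sera and 16 ulna bones. The animals were male wild-type rats (WT, Zucker lean, ZDF +/+) and Zucker diabetic fatty rats (ZDF fa/fa), which carry a homozygous mutation of the leptin receptor and become diabetic. All of them had a subcritical defect made in the femur, all ate the same energy-rich chow, and samples were taken after 12 weeks of treatment. The labels give no age. Serum came from WT rats given placebo (5), parathyroid hormone, PTH (5), or an antibody against sclerostin (4), and from ZDF rats given placebo (5), PTH (5), anti-sclerostin (4) or insulin (4). Bones were taken in 4 groups of 4, from either genotype after placebo or after PTH. The paper states that bones and sera came from the same rats apart from some bones of PTH-treated ZDF rats, but the labels link no bone to a serum, so tissues were treated as independent.

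The Dlk1-Dio3 domain is imprinted: its non-coding RNAs, among them Meg3 and the miRNA precursors, are made from the maternal chromosome, while Dlk1, Rtl1 and Dio3 are made from the paternal one. Some of the miRNAs, such as miR-127, miR-136, miR-431, miR-433 and miR-434, are transcribed antisense to Rtl1, and a larger group lies further along, from miR-379 to miR-410. The cluster is best known from embryonic tissue, brain, muscle and stem cells. A miRNA recognizes its targets mainly through its seed, bases 2 to 8 of the mature strand.

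A mature sequence was found in RefSeq (build GRCr8) for 82 of the 84 members, all on chromosome 6. They fall into an upstream block of 21 members at chr6:134298094-134354559 and a downstream block of 63 members at chr6:134543460-134579828, 189 kb apart. Of the 82, 3 are on the minus strand, antisense to the rest. The 82 sequences carry 76 different seeds, so the cluster is not a seed family. The sequences below are those of the most abundant members and of those on which the comparisons turn, with the seed in capitals, and miR-136-5p and miR-127-5p are named only.
miR-127-3p: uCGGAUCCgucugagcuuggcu
miR-434-3p: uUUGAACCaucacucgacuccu
miR-136-3p: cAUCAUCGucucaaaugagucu
miR-341: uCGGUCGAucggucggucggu
miR-411-5p: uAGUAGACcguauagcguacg
miR-376c-3p: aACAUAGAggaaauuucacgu
miR-376a-3p: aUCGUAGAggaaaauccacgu
miR-487b-3p: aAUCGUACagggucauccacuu
miR-539-5p: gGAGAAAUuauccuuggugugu
miR-382-5p: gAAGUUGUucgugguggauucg
Another pair is shown because its counts cannot be separated with confidence. Aligned with a shift of a base, the 3p arms of miR-379 and miR-411 differ by 1 mismatch, while their seeds are offset.
miR-379-3p: cUAUGUAAcaugguccacuaac
miR-411-3p: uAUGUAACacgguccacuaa
The same closeness, 1 mismatch, was found for miR-300-3p with miR-381-3p, miR-376b-5p with miR-376c-5p and miR-299a-5p with miR-299b-5p.

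The cluster was a small part of the miRNAs of both tissues. It took 12292 of 6401893 miRNA reads in bone and 499 of 2942603 in serum. In bone 75 members had a read, 11 of them in all 16 libraries, and 35 members had 10 reads or fewer in all bones together. In serum 52 members had a read, no member was seen in more than 21 of the 32 libraries, and a library held only 4 to 52 cluster reads. The miRNA reads per library ranged from 41627 to 1398702 in bone and from 28015 to 205664 in serum. Intervals on shares and ratios below are exact 95% intervals that treat reads as independent, and they leave out the spread between animals. Reads copied by PCR are not independent molecules, so the intervals are too narrow even for counting error. Replicates differed by more than counting error in all 82 pairs compared (lowest chi-square per degree of freedom 12.7).

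**Figure D1:**
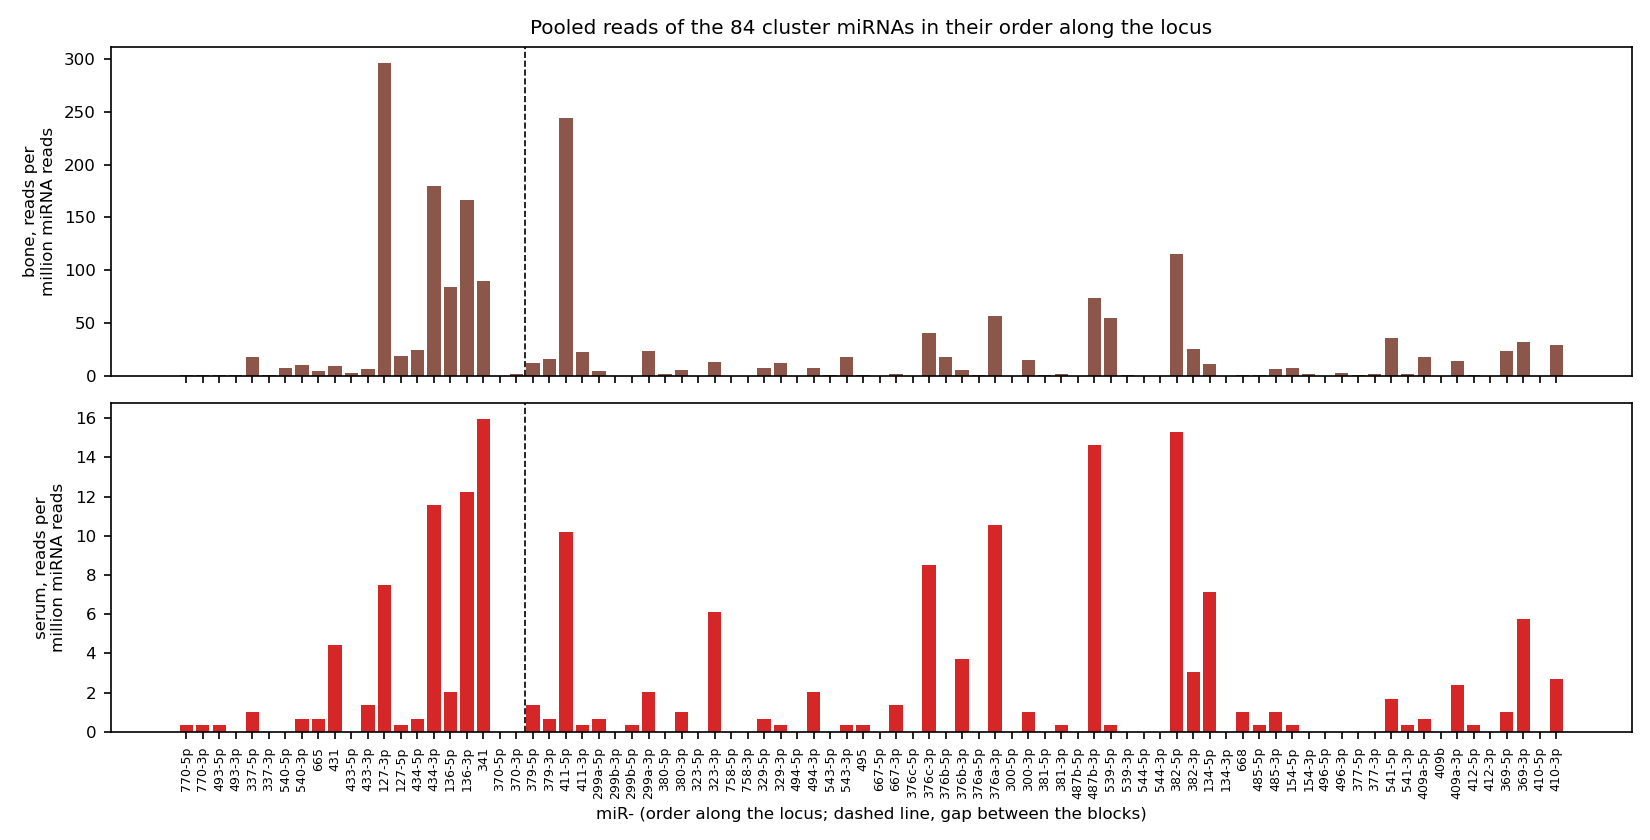
Reads per 1000000 miRNA reads (y axes, bone above and serum below, pooled over 16 and 32 libraries) of the 84 members in their order along the locus (x axis). The dashed line marks the gap between the blocks, and the y axes differ in scale. In bone miR-127-3p (296 reads per 1000000) and miR-411-5p (244) lead, and in serum miR-341 (16.0) and miR-382-5p (15.3).

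In bone a few members made up most of the signal. MiR-127-3p, from the Rtl1 antisense region, held 15.4% of the cluster reads, miR-411-5p 12.7%, miR-434-3p 9.38%, miR-136-3p 8.68% and miR-382-5p 6.03%, together 52.3%. The 21 upstream members gave 48.2% of the cluster reads (47.3 to 49.0) and the 63 downstream members the rest. MiR-127-3p was the leading member in 11 of the 16 bones. Levels are given from here as CPM, counts per 1000000 after TMM scaling over all libraries of a tissue, while fold changes come from a fit of the groups compared. Over the 16 bones, miR-127-3p had 351 ± 220 CPM (SD, n = 16), miR-411-5p 259 ± 161, miR-136-3p 206 ± 118 and miR-434-3p 165 ± 148. These neighbours in the order differ by less than their SD.

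Most hairpins were read from a preferred arm. Of 39 hairpins with both arms listed, 28 had at least 50 reads in bone, of which 19 gave more 3p and 9 more 5p reads, and 19 gave over 80% from a single arm. The 3p arm of miR-127 exceeded its 5p arm in 16 of 16 bones, with 1898 against 119 reads. MiR-411 had the opposite preference, with 1565 reads from the 5p and 146 from the 3p arm, and the 5p arm was higher in 16 of 16 bones. MiR-369 was balanced, with 153 reads from the 5p and 204 from the 3p arm.

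Serum was compared with bone to see where the cluster is counted. Tissue and the preparation of RNA from it go together and cannot be told apart here. In bone of placebo-treated WT rats the share of the cluster among miRNA reads was 0.159%, 0.165%, 0.159% and 0.122%, and in their sera 0.0146%, 0.0172%, 0.0436%, 0.0169% and 0.0153%. In bone of placebo-treated ZDF rats it was 0.158%, 0.172%, 0.181% and 0.161%, and in their sera 0.0123%, 0.0108%, 0.0129%, 0.0195% and 0.00822%. The tissues did not overlap in either genotype. Of pooled reads, the bone share was 6.85 times that of serum in WT (5.75 to 8.23) and 13.1 times in ZDF rats (9.90 to 17.6). The difference between these ratios was not tested. The size depends on the total: the mean log2 difference was 2.94 in WT and 3.78 in ZDF rats per miRNA read, and 5.33 and 6.62 per read of the whole library.

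**Figure D2:**
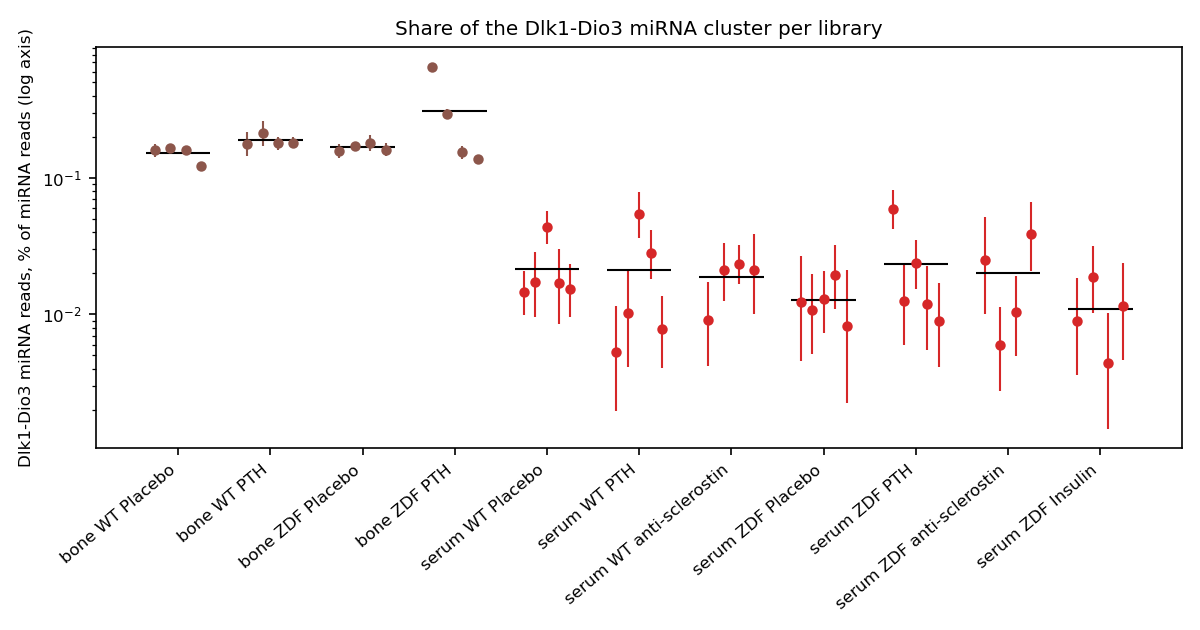
Share of cluster reads among miRNA reads (y axis, %, log scale) for each library (points, with exact 95% intervals for counting error) in the 11 groups, and the group mean (black lines). All bones lie between 0.122% and 0.643% and all sera between 0.00442% and 0.0595%, and libraries 1 and 2 of PTH-treated ZDF bone lie above the other bones.

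Only the most abundant members had enough reads to be tested between tissues. In WT rats, 4 members were tested and all 4 were called higher in bone at an FDR (Benjamini-Hochberg adjusted p of edgeR's quasi-likelihood test) under 0.2, where 43.7% of the 222 miRNAs tested were called higher. In ZDF rats, 3 of 3 were called higher, beside 47.5% of 202 miRNAs. These members passed the filter on low counts through bone alone, with a mean of 2 reads or fewer per serum library. The direction of the calls was therefore fixed by the filter. The same choice favours high ratios, so the levels and ratios below are a description and no support for a difference. MiR-127-3p was at 248 reads per 1000000 miRNA reads in WT bone and 6.45 in WT serum, a ratio of 38.4 (14.9 to 142). MiR-411-5p had 12.5 times the serum level in WT bone (6.54 to 27.6). In ZDF placebo sera it had 0 reads in all 5 libraries, which allows up to 7.66 per 1000000, and its pooled bone level was 22.9 times that limit. MiR-136-3p was 6.32 times higher in WT bone (3.37 to 13.4).

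The mix of members differed between the tissues. MiR-127-3p held 15.4% of the cluster reads in bone (14.8 to 16.1; 11.1 to 33.7 over single bones) and 4.41% in serum (2.78 to 6.60). MiR-341, also upstream, held 4.68% in bone (4.31 to 5.07) and 9.42% in serum (7.00 to 12.3). MiR-487b-3p, a downstream member, held 3.82% in bone (3.49 to 4.18) and 8.62% in serum (6.31 to 11.4). Upstream members gave 48.2% of the bone and 35.1% of the serum cluster reads (30.9 to 39.4). The serum pool also holds insulin and anti-sclerostin groups, which have no bones. In WT placebo rats the upstream share was 48.7% in bone (46.9 to 50.5) and 40.0% in serum (31.5 to 49.0), with overlapping intervals. In ZDF placebo rats it was 48.0% (46.3 to 49.7) and 21.6% (11.3 to 35.3). These are descriptions of pooled reads, which deeper libraries dominate, and no test over animals was made.

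The first question on disease was whether the cluster differs between diabetic and non-diabetic bone. Of the 11 members tested between ZDF and WT placebo bone, 0 were called, as were 0% of the 235 miRNAs tested. At an unadjusted p under 0.05 there was 1 member among 37 miRNAs, and DESeq2 called 1 member among 51 miRNAs. The median log2 fold change was 0.31 over the 11 members and -0.02 over all miRNAs tested, and 10 of the 11 were above 0. Among these, miR-127-3p (0.012) and miR-434-3p (0.0019) were barely so. The members share a locus and were read in the same libraries, so this count is a description.

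MiR-539-5p was the member nearest to the threshold. Its level was 8.8, 21.9, 9.7 and 28.4 CPM in the 4 WT placebo bones and 54.9, 68.1, 32.9 and 36.6 CPM in the 4 ZDF placebo bones. All ZDF bones were above all WT bones, where 9.36% of the miRNAs tested were without overlap. It passed the filter through the ZDF bones alone, where it is high, and the WT bones held 2, 9, 6 and 21 reads. The absence of overlap, the fold changes and the calls below are therefore a description and no support for a difference. The log2 fold change was 1.47 ± 0.46 (SE; 95% interval 0.47 to 2.48), with an FDR of 0.215 by edgeR, just outside the threshold. It was 0.77 (FDR 0.306) with an index of muscle miRNAs as a covariate. DESeq2 (FDR 0.0634, among 51 of 235 miRNAs called) and RLE size factors (0.180, among 16) called it. Totals without TMM (0.191, among 14) and edgeR's newer fit (0.191, among 9) called it as well. Leaving out a library took it below the filter in 4 of 8 cases and gave an FDR of 0.108 to 0.539 in the others. MiR-382-5p, also from the downstream block, was at 13.2, 56.0, 66.5 and 58.2 CPM in WT and 69.9, 130.5, 98.6 and 68.5 CPM in ZDF placebo bone. Its log2 difference was 0.90 ± 0.45, with an FDR of 0.373. On these values the highest WT and the lowest ZDF bone nearly touch, and with the scaling of the 8 libraries alone, which the test used, the groups overlapped.

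The other members tested differed less. MiR-434-3p was at 61.4, 163, 167 and 173 CPM in WT placebo bone and at 84.9, 332, 78.9 and 45.7 CPM in ZDF placebo bone. A single library was far from the rest in each group, low in WT and high in ZDF, and the log2 fold change of 0.0019 ± 0.55 carried an FDR of 0.997. Without ZDF library 2 it was called lower, at -1.04, among 55 of 223 miRNAs called. MiR-127-3p was at 197, 307, 256 and 262.5 CPM in WT and at 279.7, 270, 177 and 310.7 CPM in ZDF placebo bone. The ranges lie over each other, and the 95% interval of its log2 fold change ran from -0.61 to 0.63. MiR-136-5p, from the same hairpin as miR-136-3p, was at 78.9, 68.2, 42.2 and 52.8 CPM in WT and at 69.9, 104.6, 124.9 and 41.1 CPM in ZDF placebo bone. Its groups overlapped, as did those of miR-341, miR-376a-3p, miR-376c-3p, miR-411-5p and miR-487b-3p, whose log2 fold changes lay between -0.10 and 0.36.

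PTH is given to build bone, and its effect was examined in WT and ZDF bone separately. In WT bone, 0 of 9 members were called, beside 10.4% of 222 miRNAs. At an unadjusted p under 0.05 there were 2 members among 35 miRNAs, and DESeq2 called 4 members (miR-136-3p, miR-136-5p, miR-341 and miR-376a-3p) among 52 of 221 miRNAs. MiR-136-3p was at 241, 90.1, 84.3 and 96.1 CPM after placebo and at 352, 250, 220 and 220 CPM after PTH. Its PTH bones were higher than 3 of the 4 placebo bones, and library 1 of placebo lay among them. The log2 fold change was 1.04 ± 0.47, with an FDR of 0.304 by edgeR. MiR-341 was at 83.3, 46.3, 55.1 and 60.9 CPM after placebo and at 157, 227, 71.5 and 118 CPM after PTH, with a log2 fold change of 1.18 ± 0.50 and an FDR of 0.262. The groups overlapped in 1 library of each. MiR-376a-3p was at 100.8, 48.7, 53.5 and 39.2 CPM after placebo and at 157, 90.8, 115.5 and 95.1 CPM after PTH, with a log2 fold change of 0.93 ± 0.46 and an FDR of 0.315. Over the 9 members the median was 0.52, beside -0.05 over all miRNAs, and 6 were above 0. MiR-539-5p, at 0, 0, 71.5 and 68.9 CPM after PTH, was below the filter. Without placebo library 1, 5 of 10 members were called among 87 of 238 miRNAs, 4 of them higher and 1, miR-376c-3p, lower. Without PTH library 3, 1 member was called (miR-341) among 22 of 238. The shares of the cluster did not overlap, with 0.178%, 0.214%, 0.179% and 0.181% after PTH against 0.122% to 0.165% after placebo. The direction depends on the total: as a share of all reads of the library, the log2 difference was -1.27 in place of 0.32. The skeletal muscle miRNAs (6 of 6 markers listed) summed to 48117 to 69184 CPM after PTH and to 53830 to 424966 CPM after placebo. With miR-133a-3p, the most abundant of them, left out of the total, the log2 difference of the shares was 0.093.

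In ZDF bone the PTH group was split. The share of the cluster was 0.643%, 0.296%, 0.154% and 0.137% in the 4 PTH-treated libraries, against 0.158% to 0.181% after placebo. Libraries 1 and 2 were higher than all 14 other bones. MiR-382-5p was at 565, 492.7, 137 and 53.9 CPM after PTH and between 68.5 and 130.5 CPM after placebo. MiR-127-3p was at 986, 614, 322.7 and 223.5 CPM after PTH and between 177 and 311 CPM after placebo. MiR-411-5p was at 797, 384, 241 and 287 CPM after PTH and between 177 and 283 CPM after placebo. In each of these the first libraries were high and the others near the placebo range.

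Another pair of downstream members was also high in libraries 1 and 2. MiR-487b-3p was at 375.95, 117, 43.8 and 45.8 CPM after PTH and between 26.3 and 88.3 CPM after placebo. MiR-539-5p was at 249, 179.5, 32.8 and 37.8 CPM after PTH and between 32.9 and 68.1 CPM after placebo. MiR-376a-3p did not follow them, with 77.2, 29.2, 5.5 and 59.6 CPM after PTH and 44.9, 66.2, 92.0 and 54.8 CPM after placebo, and it was the only one of the 10 members tested with a log2 fold change under 0, at -0.53 ± 0.54.

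Of 10 members tested 0 were called, as were 0% of 215 miRNAs. At an unadjusted p under 0.05 there were 3 members among 12 miRNAs, and DESeq2 called 0 members and 1 miRNA in all. The log2 fold change was 1.68 ± 0.65 for miR-382-5p, 1.01 ± 0.44 for miR-127-3p and 1.1 ± 0.49 for miR-341, all with an FDR of 0.684 by edgeR. The median over the members was 0.96, beside -0.04 over all miRNAs. Without libraries 1 and 2, a choice made after seeing the data, it was -0.41. Without library 4 alone, 4 of 11 members were called (miR-127-3p, miR-341, miR-382-5p and miR-539-5p), among 16 of 214 miRNAs.

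**Figure D3:**
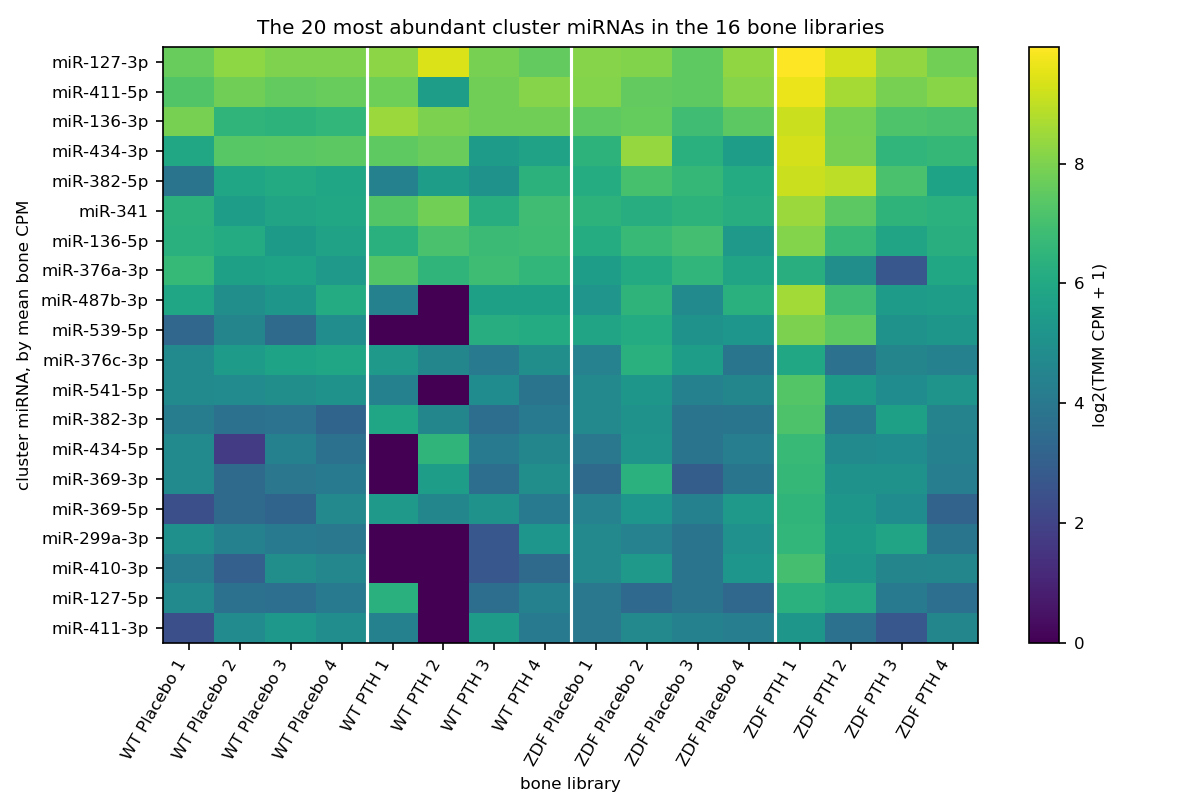
Level, as log2(TMM CPM + 1) by colour, of the 20 members with the highest mean in bone (rows) in the 16 bone libraries (columns, 4 groups divided by white lines). ZDF PTH library 1 is the brightest column for 17 of the 20 members, and the dark cells of WT PTH libraries 1 and 2 are members without a read in these shallow libraries.

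In library 1 members from both blocks were high. Of the 20 most abundant members, 17 were above all 14 bones other than libraries 1 and 2, beside 5.81% of 258 other miRNAs at least as abundant. The 20 were ranked over all 16 bones, libraries 1 and 2 included, while the 258 were chosen on the 14 bones alone. This choice favours the members, so the counts are a description. Over all 20, the median level in library 1 was 5.42 times the median of the 14 bones. Library 2 exceeded the 14 bones for 5 of the 20 members, beside 11.6% of the other miRNAs, and the median over all 20 was 1.84 times, with miR-376a-3p, miR-376c-3p, miR-382-3p and miR-411-3p below the median of the 14. The exceptions in library 1 were miR-376a-3p (77.2 CPM, against 5.5 to 157 in the 14 bones), miR-376c-3p (62.2 CPM, against 13.7 to 78.7) and miR-411-3p (37.3 CPM, against 0 to 44.0). MiR-411-5p, from the same hairpin as the last, was 3.67 times the median there. The upstream share of the cluster reads was 47.7% in library 1 and 46.9% in library 2, near the 48.2% of all bones.

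Other miRNAs were compared in these libraries as well. MiR-9a-5p, a neural miRNA, was at 466 and 610 CPM in libraries 1 and 2 and at 103 to 272 CPM in the 14 others. The neural list as a whole (4 of 4 listed) summed to 2328 and 2213 CPM, within the 976 to 4645 CPM of the other bones, and miR-124-3p was at 15 and 17 CPM against 0 to 34. The muscle list summed to 177891 and 156218 CPM, within the 48117 to 457268 CPM of the other bones. Most of the sum was miR-133a-3p, at 172264 and 133777 CPM. MiR-1-3p (3296 and 17944 CPM against 944 to 8104) and miR-206-3p (702 and 3252 CPM against 170 to 957) were high in library 2 only. MiR-499-5p was at 54.8 and 54.3 CPM, below the 58.7 to 333.8 CPM of the others. The muscle index, the mean log2 level of miR-1-3p, miR-133a-3p and miR-206-3p, was 12.8 and 14.3 against 11.2 to 13.3. Library 2 was thus the highest of the 16 bones by this index. The leukocyte list (5 of 5 listed) summed to 3720 and 3712 CPM, the lowest of the 16 bones, against 3747 to 8311 CPM. The mesenchymal and osteoblast list (3 of 3 listed) summed to 12387 and 14108 CPM, against 13455 to 45004 CPM in the others, so only library 1 was below them. Of its members, miR-199a-5p was at 6050 and 6392 CPM, below the 6748 to 18684 CPM of the others. MiR-199a-3p, at 5985 and 7523 CPM, was within their 2467 to 22275 CPM. MiR-214-3p, at 351 and 192 CPM, was below their 280 to 4343 CPM in library 2 only. Their part in the result was not tested. The paper states that 2 of the 4 bones of this group came from other rats than the sera. The labels do not say which, and the part of this in the result cannot be told apart either. In bulk tissue, a change in the cells sampled and a change in RNA per cell cannot be told apart.

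The response to PTH was also compared between the genotypes. Of 11 members 0 differed, as did 0% of 243 miRNAs, with 0 members at an unadjusted p under 0.05 and 0 called by DESeq2. The largest difference in each direction, ZDF minus WT, was 1.72 ± 0.88 for miR-382-5p and -1.41 ± 0.72 for miR-376a-3p on the log2 scale, both with an FDR of 0.806 by edgeR.

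**Figure D4:**
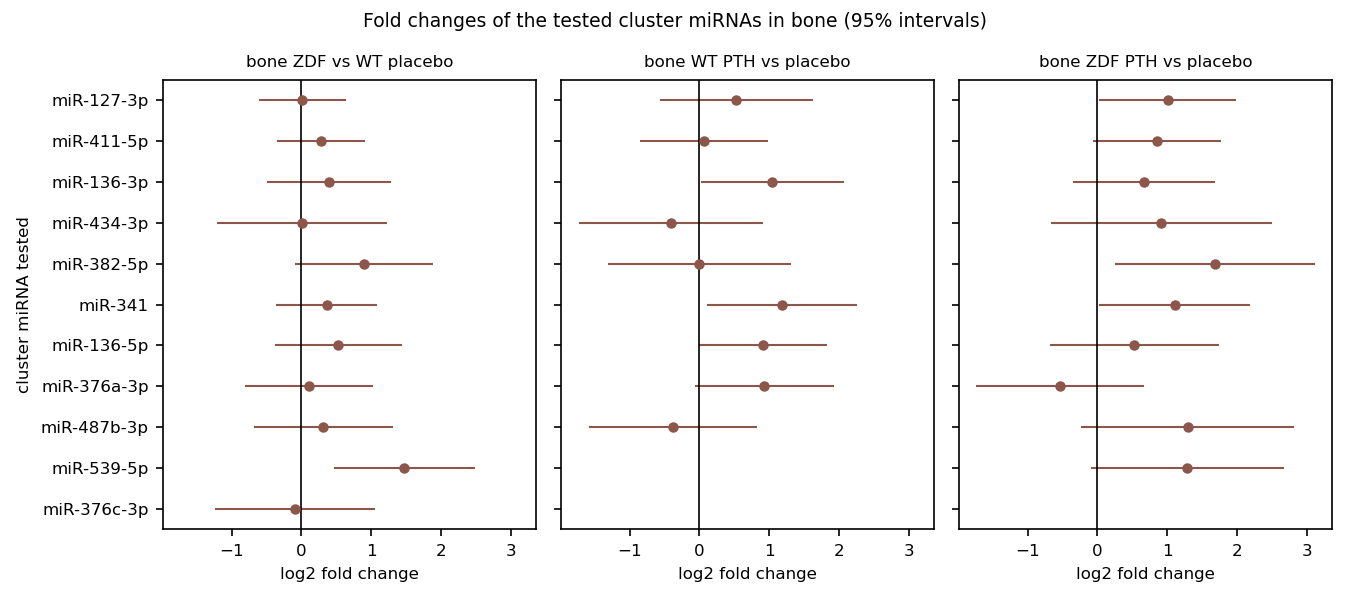
Log2 fold change (x axis, points, with 95% intervals from edgeR's fit) of each cluster miRNA tested (rows) in the 3 bone comparisons. The interval of miR-539-5p, 0.47 to 2.48, lies above 0 in ZDF against WT bone, but it passed the count filter through the ZDF bones alone. No point passed the FDR threshold.

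In serum the cluster was too sparse for the main filter. In the 6 serum comparisons 0 members passed the filter on low counts, beside 151 to 171 miRNAs that did. Of those, 6.1% were called between ZDF and WT placebo, 27.2% after insulin, 1.9% after anti-sclerostin in ZDF rats and 0% in the 3 others (2 to 15 at an unadjusted p under 0.05 by edgeR, and 0 to 4 called by DESeq2). A hemolysis index, log2 of miR-451-5p over miR-23a-3p reads, was 3.18 to 3.79 after insulin and -0.49 to 1.41 in ZDF placebo sera. With this index as a covariate, 0 of 151 miRNAs were called after insulin. The part of hemolysis in these calls was not tested further. With this filter no member could be tested in serum. The share was 0.0215% ± 0.0124 (SD, n = 5) in WT and 0.0127% ± 0.0042 (n = 5) in ZDF placebo sera, and the groups overlapped. It was 0.0234% ± 0.0210 (n = 5) in ZDF sera after PTH, 0.0200% ± 0.0149 (n = 4) after anti-sclerostin and 0.0110% ± 0.0060 (n = 4) after insulin. In WT sera it was 0.0212% ± 0.0207 (n = 5) after PTH and 0.0187% ± 0.0065 (n = 4) after anti-sclerostin. All of these overlapped with their placebo group. With miR-451-5p left out of the total, the share was 0.0125% ± 0.0068 (n = 4) after insulin and 0.0131% ± 0.0043 (n = 5) in ZDF placebo sera.

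MiR-411-5p was the member called under another filter. WT sera held 2, 0, 4, 2 and 1 reads and ZDF sera 0 in all 5, so that the pooled WT level was at least 1.89-fold higher than the limit that 0 reads allow. With an imitation of the study's filter it was called lower in ZDF sera, 1 of 16 members tested, beside 37 of 370 miRNAs called, 25 of them lower. The paper's own filter kept fewer miRNAs, and miR-411-5p is not among the serum miRNAs that it reports as changed. The groups overlapped, since a WT serum also had 0 reads. After PTH the ZDF sera held 1, 1, 4, 1 and 0 reads. MiR-341 had 2, 1, 9, 1 and 4 reads in WT and 1, 0, 1, 0 and 0 in ZDF placebo sera, and the groups overlapped. MiR-382-5p had 4, 1, 8, 1 and 1 reads in WT and 1, 0, 0, 1 and 0 in ZDF placebo sera, and 6, 2, 4, 0 and 0 in ZDF sera after PTH. MiR-487b-3p had 5, 0, 2, 3 and 1 reads in WT and 0, 0, 3, 0 and 0 in ZDF placebo sera. MiR-376c-3p went the other way, with 0, 1, 0, 0 and 4 reads in WT and 0, 3, 1, 3 and 1 in ZDF. So did miR-376a-3p, with 2, 1, 1, 1 and 0 reads in WT and 0, 1, 3, 2 and 0 in ZDF. MiR-134-5p had 0, 1, 0, 0 and 0 reads in WT and 1 read in each ZDF placebo serum. In each case a few reads make up the difference. The ZDF placebo sera were shallower, with a mean of 78314 miRNA reads against 124122 in WT. WT placebo library 3 held 52 of the 130 WT cluster reads. MiR-539-5p had 1 read in all 32 sera.

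Other miRNAs of the same stretch were as rare. A list of further cluster numbers found 8 listed miRNAs with 67 bone reads and 1 serum read, most of them (42) from miR-1193-3p. Another 10 miRNAs that RefSeq places within the span had 62 bone and 5 serum reads. None of these 18 was abundant enough for a test. MiR-342-3p, a neighbour on the same chromosome that is not part of the imprinted domain, went the other way between tissues, at 726 ± 410.9 CPM in bone and 3327 ± 2279 CPM in serum of WT placebo rats, with a log2 difference of -2.19 ± 0.55 and an FDR of 0.00251 by edgeR.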

How the data were processed

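Small RNA libraries of 32 sera and 16 ulna bones were counted per miRNA. Per the labels and the paper's methods, the authors trimmed reads with cutadapt, mapped them with Bowtie and deposited raw read counts per miRNA together with RPM, reads per 1000000 of the whole library. Versions are not given in the labels. The counts carry no molecular identifiers. Groups came from the labels, in which replicate numbers follow the order of deposit only. The members and lists were chosen with earlier results of these data known.

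Each comparison was fitted on all miRNAs with edgeR 4.0.16 (R 4.3.3): filterByExpr with a minimum count of 10, TMM, the quasi-likelihood test in its older (legacy) form and Benjamini-Hochberg adjustment over all miRNAs tested, called at an FDR under 0.2. An imitation of the study's filter, 1 read followed by independent filtering, was kept as an alternative and is called the study filter here. It kept other numbers of miRNAs than the paper reports. In an earlier look at these data, fits of all miRNAs with 1 read or more gave calls on simulated data without a difference. Other alternatives were DESeq2 1.42.0, RLE size factors, totals without TMM, covariates and leaving out each library. The RPM gave library totals for 1 alternative. The fits were tested on simulated data. Members were named with values if they were called in a comparison, were among the 8 highest in bone or in serum, or had groups without overlap and a mean of at least 10 reads in 1 of them. Others were named after their values were seen.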

Additional observations from a re-analysis of the deposited data

Results flagged for a closer look

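In 79 groups of 4 or 5 libraries examined, 9 held a library far from the others of its group by Dixon's criterion, where chance gives about 1 in 20. For the share of the cluster among miRNA reads these were library 2 of PTH-treated WT bone (0.214%, next 0.181%), library 4 of WT placebo bone (0.122%, next 0.159%), library 3 of WT placebo serum (0.0436%, next 0.0172%) and library 1 of WT serum after anti-sclerostin (0.00908%, next 0.0211%). Library 2 of PTH-treated WT bone rests on 89 cluster reads, 82.0% of them from the upstream block.

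Of single miRNAs in bone, WT placebo library 1 was high for miR-136-3p (241 CPM, next 96.1) and low for miR-434-3p (61.4 CPM, next 163). Library 2 of ZDF placebo, the deepest bone library, was high for miR-434-3p (332 CPM, next 84.9). Library 1 of PTH-treated ZDF bone was high for miR-541-5p (157 CPM, next 41.8) and miR-434-5p (105 CPM, next 27.3).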

How the results depend on the processing

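No paired analysis was possible because the replicate numbers only follow the order of deposit and link no samples. Of the alternatives for single members, 786 kept direction and side of the threshold, 19 brought a call and 64 changed sign, none of which was called in the main fit. Depth limits serum, with at most 52 cluster reads in a library.

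Log2 differences of the cluster share moved on whole-library totals, to -1.51 (serum ZDF against WT), -0.22 (bone ZDF against WT), -1.27 (bone WT PTH), 5.33 and 6.62 (bone against serum, WT and ZDF). Without libraries 1 and 2 (added after seeing the data) that of ZDF PTH was -0.21, and without miR-133a-3p in the total that of WT PTH was 0.093. The number of members called became 1 in serum ZDF against WT with the study filter (among 37 of 370 miRNAs) and with no filter (33 of 471). In bone ZDF against WT it became 1 with RLE, totals without TMM, DESeq2 and the newer edgeR fit (among 16, 14, 51 and 9 of 235). In bone WT PTH it became 1, 1 and 4 with the study filter, no filter and DESeq2 (among 55 of 387, 48 of 561 and 52 of 221). Between bone and serum it became 38 (study filter) and 37 (no filter) in each genotype, and 7 in WT with miR-133a-3p and miR-451-5p left out of the totals. In the main fit most of all miRNAs tested between bone and serum were called, in either genotype. These higher counts of members are therefore a description and do not set the cluster apart from other miRNAs. Leaving out 1 library gave 0 to 2 members called in bone ZDF against WT (2 without WT placebo 1, among 92 of 264 miRNAs). It gave 0 to 4 in ZDF PTH (4 without ZDF PTH 4, among 16 of 214) and 0 to 5 in WT PTH (5 without WT placebo 1, among 87 of 238). In bone against serum of WT rats it gave 4 to 5, where most miRNAs tested were called as well. Over all miRNAs, bone ZDF against WT had 0 calls, 29 with the study filter, 51 with DESeq2 and 58 with the muscle covariate. Bone WT PTH had 23 calls, 52 with DESeq2, 55 with the study filter, 48 with no filter, 13 without miR-133a-3p and miR-451-5p and 0 with the muscle covariate. The cause was not tested.

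Signs of single members changed as follows (log2). Bone ZDF against WT, miR-434-3p (0.0019): -0.0021 with the study filter and no filter, -0.13 RLE, -0.15 totals, -0.14 DESeq2, -0.0072 all groups in one fit, -0.0013 newer fit, -1.31 muscle covariate, -0.057 without miR-133a-3p and miR-451-5p. MiR-127-3p (0.012): -0.037 RLE, -0.041 DESeq2, -0.14 muscle covariate, -0.0038 without miR-133a-3p and miR-451-5p. MiR-487b-3p: -0.15 muscle covariate. ZDF PTH without libraries 1 and 2: miR-136-3p -0.24, miR-136-5p -0.41, miR-382-5p -0.044, miR-434-3p -0.55, miR-487b-3p -0.41, miR-539-5p -0.49. WT PTH: miR-382-5p (-0.0027) was 0.031 RLE, 0.12 totals, 0.028 DESeq2 and 0.12 muscle covariate, and miR-411-5p -0.065 without miR-133a-3p and miR-451-5p. PTH response, ZDF minus WT: miR-341 (0.018) was -0.00073 RLE, -0.12 totals, -0.038 muscle covariate, -0.079 without miR-133a-3p and miR-451-5p, and -1.05 without libraries 1 and 2, where miR-127-3p was -0.39, miR-376c-3p -0.15 and miR-434-3p -0.031. MiR-539-5p (-0.079) was 0.0070 RLE and 0.069 DESeq2.

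Leaving out 1 library, members that changed sign ranged as follows. Bone ZDF against WT: miR-127-3p -0.14 to 0.076, miR-376a-3p -0.18 to 0.39, miR-376c-3p -0.32 to 0.17, miR-434-3p -1.04 to 0.29, miR-487b-3p -0.032 to 0.53. ZDF PTH: miR-136-3p -0.029 to 0.90, miR-136-5p -0.21 to 0.82, miR-434-3p -0.028 to 1.78. WT PTH: miR-127-3p -0.17 to 0.73, miR-382-5p -0.23 to 0.20, miR-411-5p -0.25 to 0.29. PTH response: miR-341 -0.67 to 0.27, miR-376c-3p -0.34 to 0.58, miR-539-5p -0.66 to 0.25.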
